A study of Mus musculus with 18 samples.

Results

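This account covers newborn mouse molars (postnatal day 0, P0) and compares the dental epithelium of animals labelled DKO, a double knockout, with that of wild-type animals labelled WT. All 3 WT and all 3 DKO libraries of that stage were used, 6 of the 18 libraries of the series. The other 12 are 3 WT and 3 DKO libraries at each of embryonic day 17 (E17) and postnatal day 5 (P5), and they serve only to ask whether the genotype difference at P0 was larger or smaller than at those stages. The series concerns HMGN proteins in the differentiation of ameloblasts, and the pair deleted in this study is Hmgn1 and Hmgn2. The labels give neither the names of the alleles nor the strain, and they do not say whether a library came from 1 animal or from pooled tooth germs. No group carried an agent or treatment other than the dispase at 1 U/ml that was used to part the epithelium from the mesenchyme of the tooth germ.

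HMGN1 and HMGN2 are small abundant proteins that bind nucleosomes and counteract the compaction of chromatin by linker histones. The dental epithelium gives rise to the ameloblasts, tall secretory cells that lay down the enamel matrix and later pump calcium and phosphate into it. Before they secrete, their precursors divide, leave the cell cycle, polarise on a basement membrane facing the odontoblasts of the dental mesenchyme, and exchange Wnt, BMP, FGF, hedgehog and ectodysplasin signals with that mesenchyme.

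The genes read at P0 were a positional subset of the genome. The P0 table held 16381 transcripts of 4841 genes, and the 4760 genes with 1 position in GENCODE M21 (mm10) lay on chromosome 1 (1990 genes), chromosome 10 (1459) and chromosome 11 up to position 96873954 (1311). Hmgn1, Hmgn2 and the enamel matrix genes Amelx, Ambn and Enam lie elsewhere and were not analysed here at P0, so the deletion itself was not checked at this stage. Values are RPKM, read density normalised to transcript length and library size, summed over the transcripts of a gene. Libraries had 74845352 to 108920337 alignments each, as deposited. Pearson correlations of log2(RPKM + 1) were 0.9905 to 0.9948 among WT libraries, 0.9919 to 0.9967 among DKO libraries and 0.9666 to 0.9728 between genotypes, over genes of the same libraries, which are not independent replicates. The first principal component separated the genotypes and held 73.9% of the variance, and the second held 14.5%, with WT replicates 2 and 3 at its opposite ends. Without WT replicate 2, 327 genes rose and 540 fell, and without WT replicate 3, 368 rose and 366 fell, beside the counts with all libraries given next. Without WT replicate 2 the counts of the gene groups below were the same or differed by 1, except that 11 instead of 8 chromatin genes fell and 6 instead of 8 ion transport and mineral genes rose. Whether the replicates are different animals is not stated in the labels. P-values therefore reflect only how far these libraries vary, and that variation may be technical.

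Many genes differed between the genotypes by small amounts at P0, and a few by a large one. Of 2062 genes with at least 1 RPKM in at least 3 of the 6 libraries, 345 rose in the double knockout (16.7%) and 470 fell (22.8%). A gene is said to rise or fall here only when limma gave a Benjamini-Hochberg adjusted p under 0.05 in the same direction both on the deposited scale and after scaling each library to its upper quartile. Together 815 genes changed (39.5%). The shares of 16.7% and 22.8% are the background for each count of a gene group below. A count near them is no result about that group. Before scaling alone 345 were higher (16.7%) and 478 lower (23.2%), 39.9% in either direction, and after scaling 444 were higher (21.5%) and 532 lower (25.8%). The median log2 fold change (double knockout minus wild type, on the log2(RPKM + 1) scale, which understates changes of low genes) was 0.47 among the genes that rose, -0.42 among those that fell and -0.05 over all 2062. Changes of at least 1 on the log2 scale were found in 42 genes that rose and 20 that fell (3.01%), and changes of at least 2 in 6 that rose and 0 that fell. The 3 values of 1 genotype all lay above the 3 of the other in 1038 genes (50.3%). This share stands beside each statement below that the genotypes did not overlap. Another 2779 genes of the table lay below the level filter, 20 genes passed it through the double knockout libraries alone (19 of them rose) and 23 through the wild type alone (18 of them fell). For such genes the filter itself favours that direction. The tooth transcription factor, cornifying, mesenchyme, odontoblast and bone, muscle and interferon groups below each count 1 gene that passed through the wild type alone. The neuropeptide and hormone group counts 1 that passed through the double knockout alone. Where a group of genes below has 0 members rising or falling by this rule, 0 also passed in that direction at an unadjusted limma p under 0.05, except 1 chromatin gene that was higher, 1 gene of the neuropeptide and hormone group that was lower and 1 circadian gene that was lower. By chromosome, 17.8% of tested genes rose and 22.5% fell on chromosome 1, 17.7% and 26.1% on chromosome 10, and 14.8% and 20.8% on the part of chromosome 11 in the table.

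The gene with the largest rise was Nts, which encodes the secreted peptide neurotensin. It is a protein-coding gene on the minus strand of chromosome 10 (chr10:102481756-102490486, mm10). Nts stood at 3.37, 2.37 and 3.25 RPKM in the WT libraries and at 74.0, 78.0 and 76.6 RPKM in the DKO libraries. The double knockout mean was 25.4 times the wild-type mean, and within each genotype the 3 libraries lay close together. The log2 fold change was 4.28 ± 0.10 (SE, 3 libraries per genotype; adjusted p 6.2e-11). Its promoter is shown because this gene stands furthest from the rest. The 250 bases before the RefSeq start of Nts (GRCm38.p6, the mm10 assembly, chr10:102490419-102490668, minus strand, read 5′ to 3′ toward the gene) hold 1 match to the AP-1 motif TGACTCA, here as its reverse complement in capitals:
Nts: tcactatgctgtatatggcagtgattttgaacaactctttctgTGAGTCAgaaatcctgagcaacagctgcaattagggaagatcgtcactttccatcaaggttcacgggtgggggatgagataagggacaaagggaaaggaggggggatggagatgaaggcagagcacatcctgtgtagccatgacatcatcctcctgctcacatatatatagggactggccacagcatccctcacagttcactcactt
On either strand that motif occurs in 5.16% of the 27025 genes with a promoter in the RefSeq table and in 3.99% of the 1678 tested genes that could be matched to it. A match describes the letters only.

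The next largest rises fell on genes of muscle, matrix, transport and membrane function. Groups that do not overlap were a condition for a place among the 12 largest rises and 12 largest falls. Stac3 (chr10:127501686-127508823), an adaptor of the calcium channel of skeletal muscle, went from 1.51, 2.95 and 2.30 RPKM to 24.63, 26.94 and 27.96 RPKM (log2 fold change 3.10 ± 0.14, adjusted p 3.4e-08). No wild-type library came near any double knockout library. Ildr2, a membrane protein of the angulin family found at tricellular junctions, went from 1.09, 1.36 and 1.19 RPKM to 13.01, 10.95 and 12.02 RPKM (2.55 ± 0.10, adjusted p 6.5e-09). Tcn2, the blood carrier of vitamin B12, went from 23.0, 22.3 and 25.3 RPKM to 86.6, 86.0 and 91.8 RPKM (1.86 ± 0.07, adjusted p 6.5e-09). Groups were again far apart for both genes. Slc13a5 (chr11:72241989-72267222), a sodium-coupled citrate carrier that is needed for normal enamel, rose from 1.63, 0.918 and 1.19 RPKM to 8.04, 8.58 and 8.26 RPKM (2.06 ± 0.12, adjusted p 1.8e-07). The rest of the 12 largest rises were Col1a1, Serpinf1 and Dcn of the extracellular matrix, described further on, and Tspan8 (log2 fold change 1.78), a tetraspanin, Coro6 (1.78), an actin-binding coronin, Slc41a2 (1.63), a magnesium carrier, and Ppp1r12b (1.55), a regulatory subunit of myosin phosphatase. Stac3 stood apart from the tested genes of the skeletal muscle list, of which 0 of 9 rose and 2 fell. Another 19 of that list lay below the level filter, among them the myogenic factor Myog, at or under 0.15 RPKM in all 6 libraries. Those 19 went both ways. Sgca was at 0.261, 0.36 and 0.327 RPKM in WT and 0.765, 0.89 and 1.35 RPKM in DKO. Tnnt2 was at 0.543, 0.398 and 0.536 RPKM in WT and 0.174, 0.201 and 0.339 RPKM in DKO.

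The largest falls were smaller than the largest rises. Ccn2 (connective tissue growth factor), a secreted protein that is a common target of YAP and TGF-beta signalling, went from 30.7, 23.9 and 31.2 RPKM to 10.7, 8.81 and 10.7 RPKM (log2 fold change -1.42 ± 0.11, adjusted p 1.5e-06). Edar (chr10:58600789-58675654), the ectodysplasin receptor that is needed for the shape of tooth crowns, fell from 3.56, 2.46 and 3.19 RPKM to 0.551, 0.608 and 0.701 RPKM (-1.32 ± 0.12, adjusted p 5.0e-06). The 3 double knockout values of both genes were lower than any wild-type value, as the choice of the largest falls required. Edar passed the level filter through the wild type alone, so the filter itself favoured its fall. Ngfr, the low-affinity neurotrophin receptor, fell from 9.93, 8.63 and 9.94 RPKM to 3.66, 2.71 and 3.53 RPKM (-1.29 ± 0.11, adjusted p 2.7e-06). Kcnmb4, a beta subunit of the BK potassium channel, fell from 21.5, 18.7 and 21.9 RPKM to 7.22, 7.44 and 7.74 RPKM (-1.35 ± 0.08). Its antisense neighbour Kcnmb4os2 overlaps it and fell by 1.43 on the log2 scale, and since the counting of strand is not given in the sources used here, reads of the pair cannot be told apart. Hba-a2, an alpha globin of red cells, is listed as fallen by 1.31, from 707, 788 and 722 RPKM to 316, 297 and 281 RPKM. Its near-identical copy Hba-a1 did not pass the test (649, 707 and 730 RPKM in WT and 802, 586 and 660 RPKM in DKO), so the split of reads between the copies is uncertain. Summed over both copies the level was 1356, 1495 and 1452 RPKM in WT and 1118, 883.4 and 940.7 RPKM in DKO. The other large falls were those of Lypd1 (-1.39), a modulator of nicotinic receptors, Mfap4 (-1.38), a microfibril-associated glycoprotein, Col13a1 (-1.35), a transmembrane collagen, Twist2 (-1.29), a transcription factor of mesenchyme, Olfml2b (-1.21), an extracellular olfactomedin-like protein, and Kif26b (-1.18), a kinesin-like protein.

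**Figure D1:**
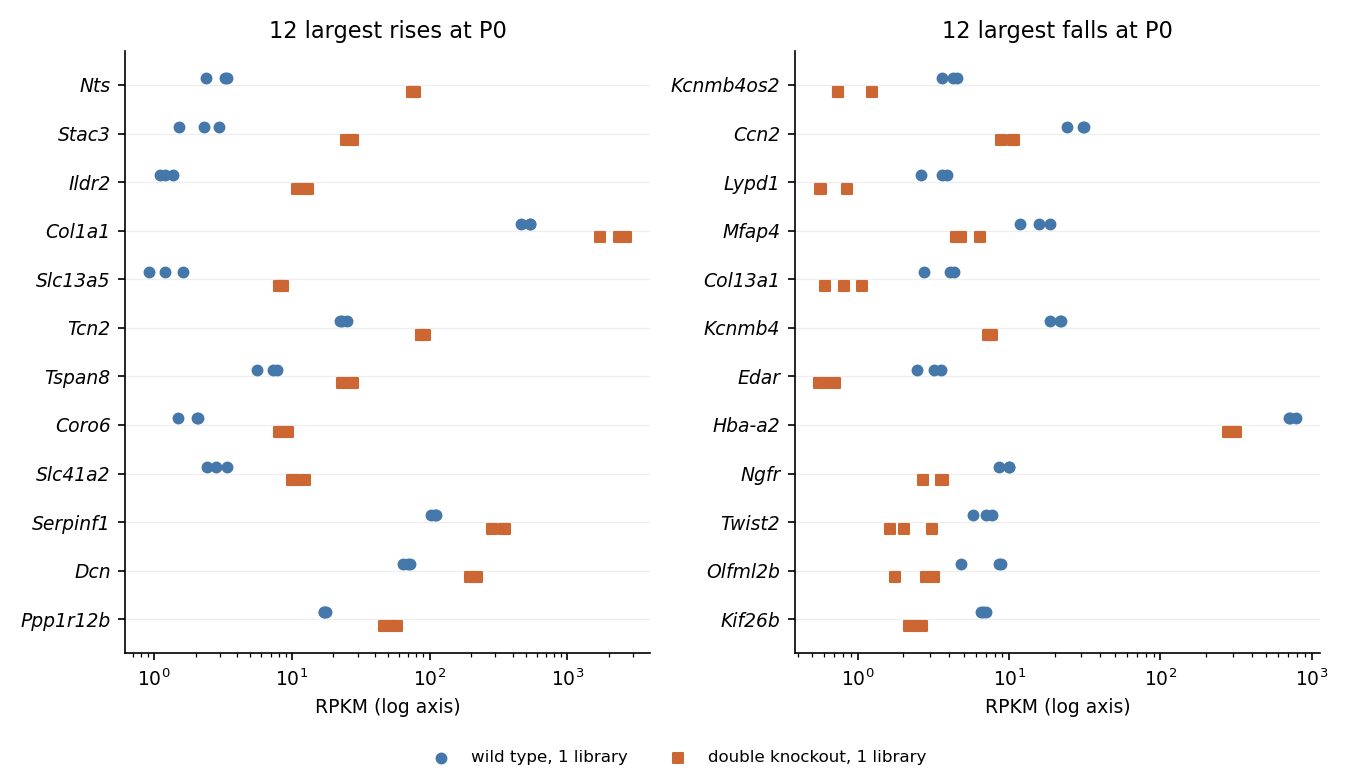
RPKM per library (log axis) of the genes with the largest rises and the largest falls at P0, with 3 wild-type and 3 double knockout libraries as points. Nts stood at 2.37 to 3.37 RPKM in the wild type and at 74.0 to 78.0 RPKM in the double knockout. Only genes whose genotypes do not overlap could be plotted, and 50.3% of all genes tested have no overlap.

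Genes of cell division fell together. Of 16 genes of mitosis and the G2 phase, 15 fell and 0 rose, with a median log2 fold change of -0.49 beside -0.05 over all genes tested, of which 22.8% fell. Cdk1, the kinase that starts mitosis, went from 90.7, 80.3 and 95.3 RPKM to 47.5, 44.5 and 47.5 RPKM (-0.91 ± 0.08, adjusted p 2.7e-06). The lowest wild-type library was far above the highest double knockout library. Aurkb, the Aurora kinase of the chromosomal passenger complex, went from 26.6, 25.9 and 29.3 RPKM to 14.7, 12.5 and 14.6 RPKM (-0.93 ± 0.08, adjusted p 5.3e-06). Nek2, a centrosome kinase, fell by 0.83 and Nuf2, a part of the outer kinetochore, by 0.68. The 1 member that did not pass was Pttg1, securin, at 19.98, 20.59 and 22.78 RPKM in WT and 21.5, 24.5 and 22.3 RPKM in DKO. The summed level of the 16 genes was 371 to 430 RPKM in the wild type and 256 to 273 RPKM in the double knockout.

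Genes of DNA replication fell less evenly. Of 15, 9 fell and 0 rose (median -0.54). Mcm6, a subunit of the replicative helicase, went from 49.90, 47.16 and 53.01 RPKM to 30.1, 27.4 and 30.3 RPKM (-0.75 ± 0.07, adjusted p 9.3e-06). Mcm3, another subunit, fell by 0.74, Dtl, an adaptor that marks replication proteins for destruction, by 0.70, and Timeless, a part of the fork protection complex, by 0.61. No values of the genotypes overlapped for these 4 genes. Their summed level with the other 11 genes was 201.2 to 232.3 RPKM in WT and 149.0 to 168.3 RPKM in DKO. These libraries are of whole tissue, in which fewer dividing cells and less RNA per dividing cell cannot be told apart. That holds for each group of genes below.

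The promoters of Cdk1 and Mcm6 are shown because these 2 groups moved together and their promoters share letters. Cdk1 has 3 matches to the CCAAT box (as ATTGG on this strand) and 2 to the cell-cycle homology motif (TTTGAA or TTTAAA), and Mcm6 has 2 CCAAT boxes and 2 matches to the E2F motif (TTTGGCGC or TTTCCCGC), all in capitals. The windows are the 250 bases before the RefSeq starts (GRCm38.p6), chr10:69352913-69353162 and chr1:128359706-128359955, both of the minus strand:
Cdk1: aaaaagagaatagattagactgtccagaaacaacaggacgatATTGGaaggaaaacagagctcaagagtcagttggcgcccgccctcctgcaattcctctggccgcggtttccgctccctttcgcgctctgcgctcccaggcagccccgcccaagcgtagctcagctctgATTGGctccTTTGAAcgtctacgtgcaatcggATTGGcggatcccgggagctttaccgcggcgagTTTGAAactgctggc
Mcm6: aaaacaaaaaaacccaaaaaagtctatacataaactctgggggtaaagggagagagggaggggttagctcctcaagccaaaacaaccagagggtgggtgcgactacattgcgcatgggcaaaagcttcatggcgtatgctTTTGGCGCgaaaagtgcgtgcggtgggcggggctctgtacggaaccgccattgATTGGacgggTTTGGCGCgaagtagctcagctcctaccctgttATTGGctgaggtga
On either strand the CCAAT box was found in 13 of the 15 mitosis genes with a promoter in the table and in 10 of 13 replication genes, beside 38.6% of the tested genes and 37.5% of all 27025. The cell-cycle homology motif was found in 7 of the 15 mitosis genes and in 1 of the 13 replication genes, beside 21.8% of the tested genes. The E2F motif was found in 5 of the 13 replication genes, in 1 of the 15 mitosis genes and in 2.62% of the tested genes. No match of one kind overlaps a match of another in the Cdk1 and Mcm6 windows shown, and a match is not a bound site.

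**Figure D2:**
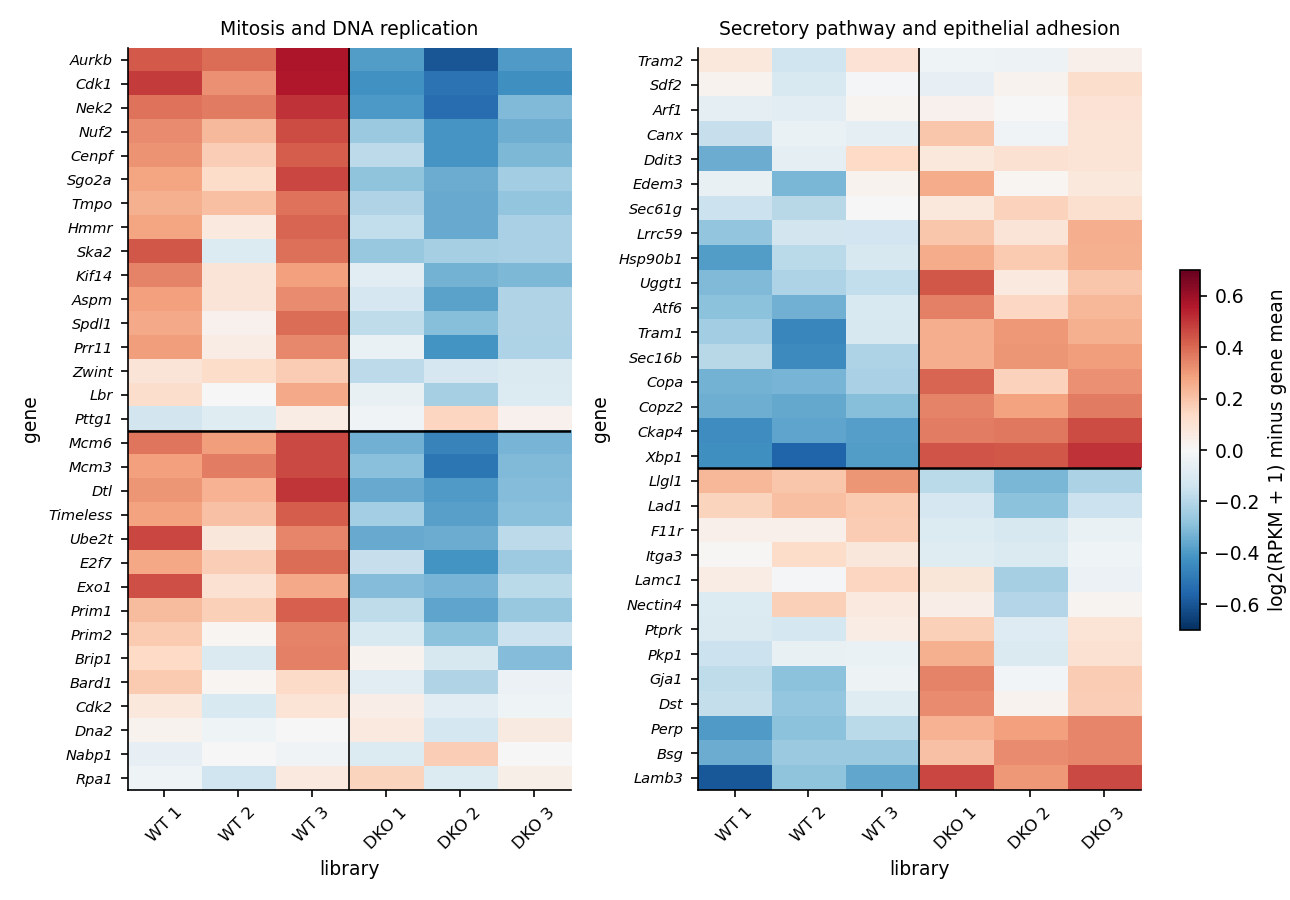
Log2(RPKM + 1) of list members in each of the 6 libraries as the difference from the gene's mean over them, with 1 column per library and 1 line per gene. The left panel holds 16 mitosis genes above 15 replication genes, of which Cdk1, Aurkb, Mcm6 and Mcm3 are higher in all 3 wild-type libraries; the right panel holds 17 secretory genes above 13 of the 14 tested epithelial adhesion genes, of which Xbp1, Ckap4 and Lamb3 are higher in all 3 double knockout libraries.

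Genes of the secretory pathway rose. Of 17 genes of protein folding, quality control and transport in the endoplasmic reticulum and Golgi, 11 rose and 0 fell (median 0.46). Xbp1, the transcription factor that enlarges the secretory machinery, went from 43.3, 39.4 and 44.4 RPKM to 79.9, 79.7 and 83.6 RPKM (0.92 ± 0.07, adjusted p 1.2e-06). Ckap4, a membrane protein that shapes sheets of the endoplasmic reticulum, went from 47.7, 50.1 and 49.5 RPKM to 83.6, 84.0 and 89.5 RPKM (0.79 ± 0.06, adjusted p 2.1e-06). The double knockout libraries of both genes lay well above all wild-type libraries. Copz2 and Copa, coat proteins of Golgi vesicles, rose by 0.66 and 0.59. Hsp90b1, the chaperone GRP94, rose from 265, 304 and 322 RPKM to 417, 395 and 413 RPKM (0.46 ± 0.08, adjusted p 0.00083). Canx, the chaperone calnexin, did not pass (97.4, 106 and 104 RPKM in WT, 125, 107 and 117 RPKM in DKO, adjusted p 0.068). The summed level of the 17 genes was 1049 to 1158 RPKM in the wild type and 1372 to 1461 RPKM in the double knockout.

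The promoter of Hsp90b1 is shown for its matches to the ER stress response element (CCAAT, then 9 bases of any kind, then CCACG), of which it holds 2, 1 on each strand. Capitals mark the fixed letters at both ends of each match, and each match includes a CCAAT box; further CCAAT boxes are in lower case. The window is the 250 bases before the RefSeq start (GRCm38.p6, chr10:86705445-86705694, minus strand):
Hsp90b1: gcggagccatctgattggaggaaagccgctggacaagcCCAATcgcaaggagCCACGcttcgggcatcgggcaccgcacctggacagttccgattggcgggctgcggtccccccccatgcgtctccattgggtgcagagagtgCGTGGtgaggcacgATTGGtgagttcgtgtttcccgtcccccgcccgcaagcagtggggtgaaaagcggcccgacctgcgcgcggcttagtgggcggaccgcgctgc
The element was found in 2 of the 15 secretory genes with a promoter in the table, Hsp90b1 and Canx, in 4 of the 1678 tested genes and in 35 of all 27025. These letters were not found in this window of the other 13. Hsp90b1, Canx and Pttg1 were named after their values were seen.

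**Figure D3:**
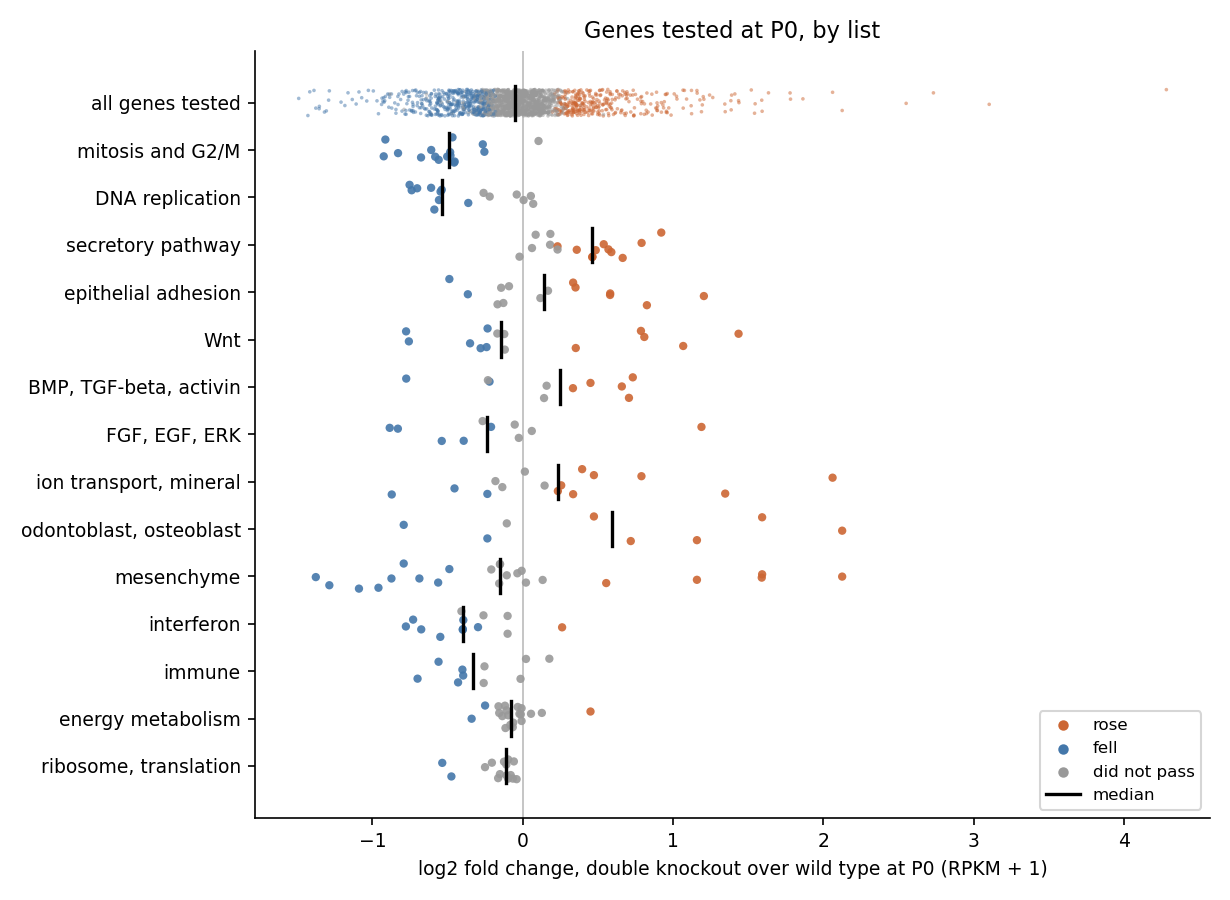
Log2 fold change (double knockout minus wild type) of all genes tested and of every tested member of 14 gene groups, 1 point per gene, with the median of each group. The mitosis and replication groups sit below 0 with medians of -0.49 and -0.54, the secretory group above 0 with a median of 0.46, and the energy and ribosome groups near the median of -0.05 of all genes tested.

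Wnt signalling genes moved both ways. Of 14 genes tested, 5 rose and 6 fell (median -0.15). Of 4 ligands tested 3 rose, and the 6 that fell were receptors, transducers or nuclear effectors. Among the ligands, Wnt10a (chr1:74791516-74804179), whose loss disturbs tooth formation in people and mice, rose from 14.2, 18.6 and 15.9 RPKM to 43.6, 45.3 and 47.2 RPKM (1.44 ± 0.09, adjusted p 3.2e-07). Its neighbour Wnt6 (chr1:74771892-74785322) rose from 59.6, 70.6 and 65.0 RPKM to 126, 141 and 146 RPKM (1.07 ± 0.08, adjusted p 1.4e-06). Genotypes stood apart in all libraries for both ligands. Wnt3a, named after its values were seen, rose by 0.35. Wif1, a secreted Wnt inhibitor, rose from 65.4, 58.5 and 69.4 RPKM to 117, 106 and 118 RPKM (0.81 ± 0.08), and Vangl2, a planar polarity protein, from 31.7, 35.1 and 34.8 RPKM to 60.1, 55.7 and 61.6 RPKM (0.79 ± 0.07). In the other direction, Nxn, a thioredoxin-like protein that binds Dishevelled, fell from 44.7, 44.7 and 49.0 RPKM to 25.4, 27.2 and 27.0 RPKM (-0.78 ± 0.07). Tcf7, a nuclear effector of Wnt signals and itself a common target of them, fell from 26.7, 27.0 and 29.4 RPKM to 19.4, 12.9 and 16.1 RPKM (-0.76 ± 0.12). The count of 6 that fell came to 3 without DKO replicate 1 and to 3 without DKO replicate 3. Lgr5, a Wnt-pathway receptor of stem cells, did not reach the level filter, with at most 0.526 RPKM.

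In the BMP, TGF-beta and activin group 5 of 10 tested genes rose and 2 fell (median 0.25), the falls coming to 1 when any library except WT replicate 2 was left out. Tgfb2, a TGF-beta ligand, rose from 20.7, 20.3 and 22.9 RPKM to 35.9, 34.3 and 35.8 RPKM (0.71 ± 0.07, adjusted p 1.4e-05). Nog, the BMP antagonist noggin, fell from 7.83, 8.19 and 9.12 RPKM to 4.503, 4.15 and 4.772 RPKM (-0.78 ± 0.09, adjusted p 4.0e-05). Lefty1, a Nodal antagonist, rose by 0.66 and Fstl3, a follistatin-like antagonist of activin, by 0.73.

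Genes of the FGF and EGF pathways fell more often than they rose, with 5 of 10 tested genes falling and 1 rising (median -0.24). Dusp6, the phosphatase that is induced by ERK and limits it, went from 38.0, 31.7 and 38.5 RPKM to 18.6, 19.7 and 21.1 RPKM (-0.83 ± 0.09, adjusted p 1.8e-05). Phlda1, also induced by growth factors, went from 34.1, 29.3 and 35.1 RPKM to 19.2, 15.3 and 17.5 RPKM (-0.89 ± 0.09, adjusted p 2.2e-05), and Spred2, an inhibitor of Ras, fell by 0.54. The receptor Erbb3 fell by 0.39. Kitl, the ligand of the Kit receptor, was the member that rose, from 3.13, 2.37 and 2.83 RPKM to 6.80, 8.87 and 7.20 RPKM (1.19 ± 0.11, adjusted p 9.2e-06). Fgf18 lay below the level filter, at no more than 0.43 RPKM.

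Of 7 Notch genes 2 rose and 3 fell (median -0.23). Those that fell were the transcriptional repressors Hes6, from 25.12, 27.96 and 25.35 RPKM to 15.97, 15.97 and 17.1 RPKM (-0.65 ± 0.07), and Hey2 (-0.78 ± 0.11), and the ligand-like receptor Dner (-0.71 ± 0.14). Ncstn, a subunit of gamma-secretase, rose by 0.33. Of 6 genes of insulin-like growth factor signalling 3 fell and 0 rose (median -0.49). Igfbp3, a binding protein of these factors, went from 80.9, 55.9 and 79.2 RPKM to 39.8, 32.1 and 35.9 RPKM (-0.97 ± 0.13), and Grb10, an inhibitor of the receptor, from 27.8, 17.02 and 26.82 RPKM to 12.9, 7.17 and 10.3 RPKM (-1.16 ± 0.20). For both, WT replicate 2 was the lowest wild-type library and still lay above all DKO libraries. Igf1 itself went from 13.6, 5.75 and 12.3 RPKM to 5.65, 4.30 and 4.76 RPKM (-0.90 ± 0.23, adjusted p 0.0079), but its lowest wild-type value barely exceeds its highest double knockout value, and the call is lost without WT replicate 1 (-0.69) or without WT replicate 3 (-0.76). Igfbp5, at 202.6, 120.5 and 187.7 RPKM in WT and 176, 147 and 165 RPKM in DKO, overlapped. Hedgehog signalling showed little: of 9 genes tested, Gli1, the target and effector of the pathway, rose by 0.23 and Disp1, which releases the ligand, fell by 0.31. The call of Gli1 is lost without WT replicate 1, without DKO replicate 1 or without DKO replicate 3 (0.20 to 0.24), and that of Disp1 without replicate 1 of either genotype (-0.31 and -0.27).

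Transcription factors with known roles in teeth moved both ways, with 4 of 19 tested genes rising and 8 falling (median -0.20). Among all genes tested 16.7% rose and 22.8% fell. The list shares Gli1, Gli2, Hes6, Hey2 and Tcf7 with the pathway lists above. Dlx3, a homeobox factor of ameloblasts whose mutation disturbs enamel and dentin, rose from 74.1, 78.3 and 80.6 RPKM to 108, 94.6 and 109 RPKM (0.41 ± 0.07, adjusted p 0.00092). Its neighbour Dlx4 rose from 9.95, 13.7 and 11.2 RPKM to 20.1, 17.2 and 20.7 RPKM (0.69 ± 0.11, adjusted p 0.0004). The genotypes did not overlap for these genes. Nfic, which is needed for tooth roots, fell by 0.20 with an adjusted p of 0.044, a call lost when any of WT replicates 1 and 3 and the 3 DKO replicates was left out.

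The labelled tissue is an epithelium, and some genes of epithelial adhesion were high in both genotypes. Of 14 tested 6 rose and 2 fell (median 0.14), and their summed level was 1519 to 1668 RPKM in the wild type and 1994 to 2173 RPKM in the double knockout. Most of this sum came from Gja1, Bsg and Perp, given below. Cldn7, a claudin of the list, lay below the level filter, at 0.993, 1.45 and 1.2 RPKM in WT and 0.463, 0.379 and 0.667 RPKM in DKO. Lamb3 encodes a laminin chain that anchors ameloblasts and other epithelia to the basement membrane. It rose from 37.0, 46.0 and 43.5 RPKM to 78.2, 69.7 and 77.9 RPKM (0.83 ± 0.09, adjusted p 1.8e-05). All double knockout libraries lay above all wild-type libraries. Perp, a desmosomal protein that is needed for enamel formation, rose from 255, 276 and 295 RPKM to 399, 410 and 427 RPKM (0.58 ± 0.07), and Bsg, the membrane glycoprotein basigin, from 355, 377 and 377 RPKM to 521, 568 and 573 RPKM (0.58 ± 0.07). Pkp1, plakophilin 1 of desmosomes, did not pass (51.3, 55.0 and 55.3 RPKM in WT, 67.9, 53.1 and 61.6 RPKM in DKO). Gja1, the gap junction protein connexin 43, rose by 0.33 (519, 483 and 573 RPKM to 748, 580 and 665 RPKM, adjusted p 0.019), a call lost without WT replicate 2 (0.28) or without DKO replicate 1 (0.25).

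Ion transporters and mineral genes leaned upward, with 8 of 15 tested genes rising and 3 falling (median 0.23). The rises came to 6 without WT replicate 1, WT replicate 2, DKO replicate 1 or DKO replicate 3. All members named here rose, and the 3 that fell are not among them. Besides Slc13a5, Atp2b1, a plasma membrane calcium pump, rose from 18.8, 18.1 and 18.0 RPKM to 46.4, 48.5 and 49.5 RPKM (1.35 ± 0.06, adjusted p 5.4e-08). Xpr1, the phosphate exporter, rose from 11.6, 10.7 and 12.9 RPKM to 23.4, 18.9 and 20.8 RPKM (0.79 ± 0.09, adjusted p 4.5e-05). Phospho1, the phosphatase that frees phosphate for mineral in matrix vesicles, rose from 43.7, 42.5 and 48.6 RPKM to 63.8, 64.9 and 59.2 RPKM (0.47 ± 0.07, adjusted p 0.00032). Within each genotype the 3 libraries of these genes were close, and the genotypes did not overlap.

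Extracellular matrix genes split between strong rises and falls. Of 18 collagen and basement membrane genes 5 rose and 9 fell (median -0.32), the falls coming to 5 without WT replicate 1. Col1a1 (chr11:94936224-94953042), the alpha 1 chain of collagen I, went from 533, 463 and 536 RPKM to 1727, 2682 and 2379 RPKM (2.12 ± 0.14, adjusted p 3.8e-07) and its share of the summed RPKM of the table from 0.533% to 0.576% in WT libraries to 1.92% to 2.89% in DKO libraries. Col3a1, the chain of collagen III, went the other way, from 140, 85.5 and 132 RPKM to 64.0, 48.3 and 51.6 RPKM (-1.09 ± 0.16, adjusted p 0.00023). The ratio of Col1a1 to Col3a1 was 3.80, 5.41 and 4.07 in WT libraries and 27.0, 55.6 and 46.1 in DKO libraries. Sparc, a matrix protein of mineralising tissue that binds collagen I, rose from 447, 324 and 440 RPKM to 690, 1078 and 956 RPKM (1.16 ± 0.16, adjusted p 0.00013). Serpinf1, a secreted serpin that is needed for bone mineral, rose from 102, 109 and 110 RPKM to 285, 351 and 344 RPKM (1.59 ± 0.08), and Dcn, the proteoglycan decorin, from 69.7, 63.5 and 72.2 RPKM to 195, 220 and 209 RPKM (1.59 ± 0.07). The DKO libraries with most Col1a1 and Sparc were replicates 2 and 3. Col18a1, a collagen of basement membranes, fell from 87.0, 91.5 and 90.5 RPKM to 58.9, 54.8 and 60.1 RPKM (-0.62 ± 0.06, adjusted p 1.7e-05).

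These matrix genes are also markers of mesenchyme and of odontoblasts and bone cells, which the dissection was meant to leave behind, and both genotypes held them at high levels. Of 23 tested mesenchyme genes 5 rose and 9 fell (median -0.15), and of 8 tested odontoblast and bone genes 5 rose and 2 fell (median 0.60; 1 fell without replicate 1 or 3 of either genotype). Of the 8 tested odontoblast and bone genes 5 are also in the mesenchyme list: Col1a1, Sparc and Serpinf1, which rose, Tnn, which fell, and Fmod, which did not pass. The summed level of the mesenchyme list was 1469 to 1856 RPKM in WT and 3528 to 4781 RPKM in DKO. That of the odontoblast and bone list was 966 to 1168 RPKM and 2797 to 4206 RPKM. Both sums include Col1a1, Sparc and Serpinf1, and Col1a1 alone averaged 511 RPKM in WT and 2263 RPKM in DKO. By count, 7 of the 23 tested mesenchyme genes had a log2 fold change above 0 and 16 below 0. Members named here after their values were seen show the spread: Col5a2, a chain of collagen V, rose by 0.55, Prrx1, a homeobox factor of mesenchyme, fell by 0.96 and Col6a1, a chain of collagen VI, by 0.87. Lum, the proteoglycan lumican, stood at 79.3, 97.8 and 101 RPKM in WT and 162, 60.9 and 105 RPKM in DKO, and Fn1, fibronectin, at 25.4, 21.1 and 25.0 RPKM and at 27.1, 15.6 and 20.1 RPKM. Both overlapped and did not pass the test. WT replicate 2 had the lowest wild-type level of Col3a1, Prrx1, Igf1 and Igfbp5. Without that library, 5 mesenchyme genes rose and 8 fell. The members of these lists below the level filter were Epyc, Chad, Msc and Tbx4, and all other members passed it. In all 6 libraries Epyc was at or under 0.307 RPKM, Chad 0.228 RPKM, Msc 0.441 RPKM and Tbx4 0.0494 RPKM. The part of mesenchyme carried over with the epithelium in these differences was not tested.

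**Figure D4:**
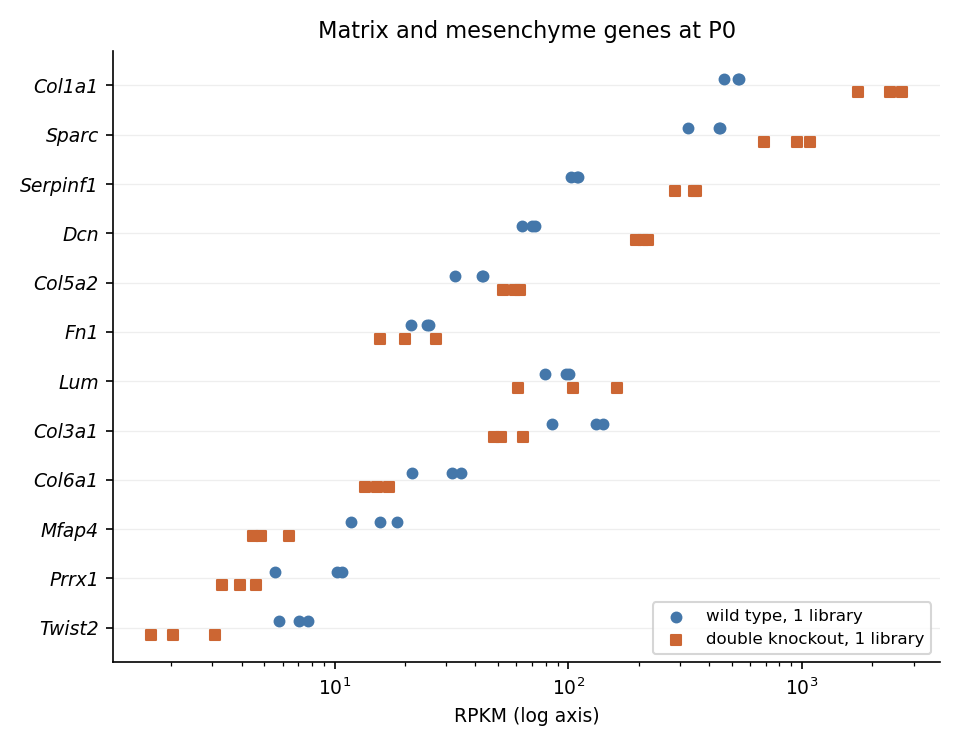
RPKM per library (log axis) of 12 matrix and mesenchyme genes at P0, wild type and double knockout side by side. Col1a1, Sparc, Serpinf1, Dcn and Col5a2 are higher in all 3 double knockout libraries, Col3a1, Col6a1, Mfap4, Prrx1 and Twist2 are lower in all 3, and Lum and Fn1 overlap.

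Among markers of other cell types that a tooth germ holds, those of vessels, immune cells and red cells that changed all fell, while glial, neuronal and cornifying genes moved both ways. Of 7 tested endothelial and pericyte genes 4 fell and 0 rose (median -0.39), among them Sox17, a factor of arteries (-0.62), Flt4, the receptor of lymphatic vessels (-0.39, a call lost without WT replicate 1 at -0.34), and Cd34 of vessel walls and blood precursors (-0.49). Their summed level was 55.2 to 77.1 RPKM in WT and 51.9 to 55.7 RPKM in DKO, which overlap. Of 10 tested immune genes 5 fell and 0 rose (median -0.33; 3 fell without WT replicate 1, WT replicate 3 or DKO replicate 3), their summed level was 53.3 to 69.9 RPKM in WT and 50.2 to 58.5 RPKM in DKO, and Ptprc, the common leukocyte antigen, stayed at or under 1.23 RPKM. Fcer1g, a signalling chain of immune receptors, fell by 0.43, Srgn, the granule proteoglycan serglycin, by 0.56, and Ccl9, a chemokine, by 0.70. Cd68 of macrophages fell by 0.40, a call lost when WT replicate 1 or 3 or DKO replicate 1 or 3 was left out (-0.31 to -0.42). Of 4 tested red cell genes 2 fell, Hba-a2 and Myb (-0.41), a transcription factor of blood precursors. Of 11 tested glial and neuronal genes 2 rose and 2 fell (median -0.16; 1 rose when any library except DKO replicate 2 was left out), with a summed level of 51.6 to 58.0 RPKM in WT and 52.1 to 57.4 RPKM in DKO, Map2 of neurons falling by 0.61 and Tuba4a, a tubulin, rising by 0.41. Of 6 tested genes of cornifying epithelium, Serpinb5, maspin, rose by 0.64, and Serpinb12 and Serpinb11 fell by 0.92 and 0.61, while 14 others of that list were below the level filter. The part that fewer cells of these types had in the falls was not tested.

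The summed level of the muscle list overlapped between the genotypes, at 54.0 to 61.8 RPKM in WT and 44.9 to 71.4 RPKM in DKO, with the highest value in DKO replicate 2. Of the 9 tested muscle genes 2 fell, beside 22.8% of all genes tested, and 4 fell without DKO replicate 2. Vgll2, a cofactor of muscle and pharyngeal arch, fell by 0.73 and Speg, a kinase of striated muscle, by 0.62. Des, the filament protein desmin, was at 5.06, 5.59 and 5.78 RPKM in WT and 3.894, 5.67 and 3.999 RPKM in DKO and did not pass the test.

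Genes that bind or modify chromatin, the group closest in function to HMGN proteins, had a median log2 fold change of -0.02. Of 28 tested 8 fell and 0 rose (1 rose without DKO replicate 2), beside 22.8% falling and 16.7% rising among all genes tested. Smyd3, a lysine methyltransferase, went from 14.1, 14.7 and 11.4 RPKM to 5.996, 4.397 and 6.315 RPKM (-1.13 ± 0.13, adjusted p 2.7e-05). Macroh2a2, a macroH2A histone variant of compacted chromatin, went from 45.3, 41.2 and 46.0 RPKM to 24.1, 24.3 and 26.3 RPKM (-0.80 ± 0.07, adjusted p 5.3e-06). Both groups of 3 libraries stood apart for both genes. Nucks1, a nuclear DNA-binding protein, fell by 0.48, and Parp1, the poly(ADP-ribose) polymerase of DNA repair, by 0.28. The 8 Hoxb genes in the table lay below the level filter.

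Genes of growth arrest leaned upward while the gene of p53 fell. Of 13 genes that p53 or growth arrest induces or that regulate p53, 7 rose and 2 fell (median 0.28; 1 fell without WT replicate 3, DKO replicate 2 or DKO replicate 3). Gadd45b, a stress-induced inhibitor of growth, rose from 24.9, 23.6 and 23.8 RPKM to 45.9, 45.1 and 50.4 RPKM (0.94 ± 0.07, adjusted p 1.2e-06), and Ddit4, an inhibitor of mTORC1, by 0.38. Trp53 fell from 54.9, 46.6 and 55.9 RPKM to 40.6, 36.9 and 42.4 RPKM (-0.38 ± 0.08, adjusted p 0.0034). Genes that cells induce within minutes of a stimulus fell more often, 5 of 9 with 1 rising (median -0.39). Ier5, one of them, fell from 40.6, 45.7 and 43.4 RPKM to 29.1, 27.5 and 30.9 RPKM (-0.55 ± 0.07), beside Ccn2 and Phlda1, and Gadd45b was the one that rose.

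Guidance cues moved both ways, 4 of 10 rising and 5 falling (median -0.36). Plxna2, a semaphorin receptor, rose from 5.14, 5.28 and 5.42 RPKM to 16.89, 13.96 and 15.44 RPKM (1.38 ± 0.09, adjusted p 3.0e-07), while Nrp2, a coreceptor of semaphorins, fell by 0.50. Unc5b, a netrin receptor, rose by 0.47 and Ntn4, a netrin of basement membranes, by 0.40, and Slit3, a Robo ligand, fell by 0.61. Of 4 tested genes of neuropeptides and hormones 3 rose: Nts, Tac2, a tachykinin (0.173, 0.256 and 0.754 RPKM to 1.601, 1.493 and 1.376 RPKM, 0.86 ± 0.14), and Nppc, C-type natriuretic peptide (0.40 ± 0.12, a call lost without replicate 3 of either genotype). Tac2 passed the level filter through the double knockout alone.

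Genes of general cell function mostly did not pass the test. Of 20 genes of energy metabolism 1 rose and 2 fell (median -0.08; 1 fell without WT replicate 1 and 5 without DKO replicate 2), namely Atp5g1 of the ATP synthase (0.45 ± 0.07), Vdac1, the pore of the outer mitochondrial membrane (-0.25 ± 0.07), and Tfam, the packaging factor of mitochondrial DNA (-0.34 ± 0.09, a call lost without WT replicate 1 at -0.29). Of 15 genes of ribosomes and translation 2 fell (median -0.11), both nucleolar. Npm1, nucleophosmin, went from 549, 534 and 603 RPKM to 397, 368 and 395 RPKM (-0.54 ± 0.07, adjusted p 0.00015). Ncl, nucleolin, went from 189.1, 184.2 and 206.9 RPKM to 150, 126 and 142 RPKM (-0.47 ± 0.08, adjusted p 0.0006). All 15 had a log2 fold change below 0, 5 of them at an unadjusted limma p under 0.05 on both scales. Their summed level was 16380 to 17280 RPKM in WT and 14910 to 16160 RPKM in DKO.

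Transcripts of 1 gene sometimes went apart. Of 3617 transcripts tested, 440 rose (12.2%) and 451 fell (12.5%), and 18 genes had transcripts that rose beside others that fell. Values of overlapping transcripts depend on how the authors' software split shared reads, which was not tested. Myl6, a myosin light chain, did not pass as a gene. A transcript of it fell from 170.8, 194.2 and 169.5 RPKM to 106.7, 129.8 and 123.3 RPKM (-0.57 ± 0.09), and another rose from 321.4, 333.5 and 352.4 RPKM to 401.7, 421.6 and 443.2 RPKM (0.33 ± 0.07). Of the Myl6 total, the transcript that fell made up 32.2% in the wild type and 20.6% in the double knockout. Cdc34, a ubiquitin-conjugating enzyme of the cell cycle, fell as a gene (-0.23, adjusted p 0.025, a call lost when any library except DKO replicate 2 was left out) and in its main transcript (38.0, 40.6 and 39.4 RPKM to 27.9, 29.2 and 17.9 RPKM), while a second transcript rose from 0.182, 0.0815 and 0.507 RPKM to 3.61, 7.88 and 16.1 RPKM (2.84 ± 0.38). The 3 double knockout values of the second transcript differ widely from each other but all exceed the wild-type values. Both genes were named after their values were seen. Another 65 genes that were not called had a called transcript, and 198 called genes had none.

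The P0 libraries enter both comparisons that follow, so these share them. The genotype difference at P0 was set beside those at E17 and P5 in the genes measured at both stages. Transcripts at P5 carry RefSeq names and those at P0 and E17 do not, so a gene sum at P5 may cover other transcripts. The part of this in the differences from P5 was not tested. The median log2 fold change over shared genes was 0.25 at E17 and -0.25 at P5 on the deposited scale and -0.015 and -0.055 after scaling, so a difference between stages is called only where it passed under both. The P0 difference lay above that of E17 in 155 of 2011 genes (7.71%) and below it in 477 (23.7%), and above that of P5 in 522 of 1758 (29.7%) and below it in 181 (10.3%). Nts was higher in the double knockout at each stage, its log2 fold changes being 3.82, 4.28 and 4.33 in the order of age. The P0 value exceeded that of E17 by 0.46 ± 0.13 (SE, adjusted p 0.0041) and differed from that of P5 by -0.05 ± 0.25 (adjusted p 0.87). In WT and DKO libraries it stood at 2.72 to 2.78 and 46.2 to 55.7 RPKM at E17, and at 4.17 to 7.60 and 107 or more RPKM at P5.

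Several of the large rises were larger at P0 than at either other stage. Stac3 had log2 fold changes of -0.91 at E17 and -0.30 at P5 (3.10 at P0), Tcn2 of 0.20 and -0.12 (1.86) and Slc13a5 of -1.32 and 0.40 (2.06). The difference between P0 and each other stage passed the test for all 3 genes. At P5 the wild type stood at 27.5 to 41.2 RPKM of Stac3, 64.6 to 96.5 RPKM of Tcn2 and 60.2 to 70.0 RPKM of Slc13a5, and at P0 at 1.51 to 2.95, 22.3 to 25.3 and 0.918 to 1.63 RPKM. Levels of the stages come from separate tables and are set side by side only. The Col1a1 fold change was negative at E17 (-1.15, adjusted p 0.00014) and P5 (-1.19, adjusted p 0.00025) and positive at P0, and the P0 effect lay above both, by 3.27 ± 0.18 (adjusted p 1.4e-11) and 3.31 ± 0.21 (adjusted p 1.0e-10). Of 8 odontoblast and bone genes the P0 effect was above that of E17 in 5 and of P5 in 7.

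For most cell division genes the genotype effect at P0 lay below that at E17. The P0 effect was below that of E17 in 14 of 16 mitosis genes, for Cdk1 by 1.42 ± 0.11 on the log2 scale (adjusted p 1.5e-09), and in 9 of 15 replication genes. Against P5 it differed on both scales in 0 of the 11 mitosis genes measured at both stages (0 also at an unadjusted p under 0.05), but 3 lay above P5 on the deposited scale alone and 4 below it after scaling alone. Cdk1 was of the latter, its difference from P5 being -0.12 ± 0.11 (adjusted p 0.34) on the deposited scale and -0.28 ± 0.08 (adjusted p 0.0088) after scaling. Of the 8 replication genes measured at both stages, 2 lay above P5 on both scales, Rpa1, a subunit of the protein that coats single-stranded DNA, and Nabp1, another single-strand binding protein, both named after their values were seen. At P5 Cdk1 stood at 2.85 to 3.34 RPKM in WT and 1.31 to 1.44 RPKM in DKO. At such low levels the log2(RPKM + 1) scale understates the genotype effect. The sign of the Cdk1 difference from P5 therefore does not show at which stage the relative fall was larger. The same limit holds for any other cell division gene that was low at P5. For the secretory genes the P0 effect lay above that of E17 in 7 of 17 and above that of P5 in 10 of 16. Kcnmb4, Edar and Phlda1, all lower in the double knockout at P0, had log2 fold changes of 0.91, 0.62 and 1.21 at E17, and the difference between stages passed for all 3. Wnt10a, with log2 fold changes of 0.73, 1.44 and -0.47 in the order of age, passed against both stages. Wnt6, with 0.99, 1.07 and -0.41, passed against P5 only, and the difference from E17 was 0.08 ± 0.12 (adjusted p 0.58) on the deposited scale and 0.37 ± 0.11 (adjusted p 0.016) after scaling.

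**Figure D5:**
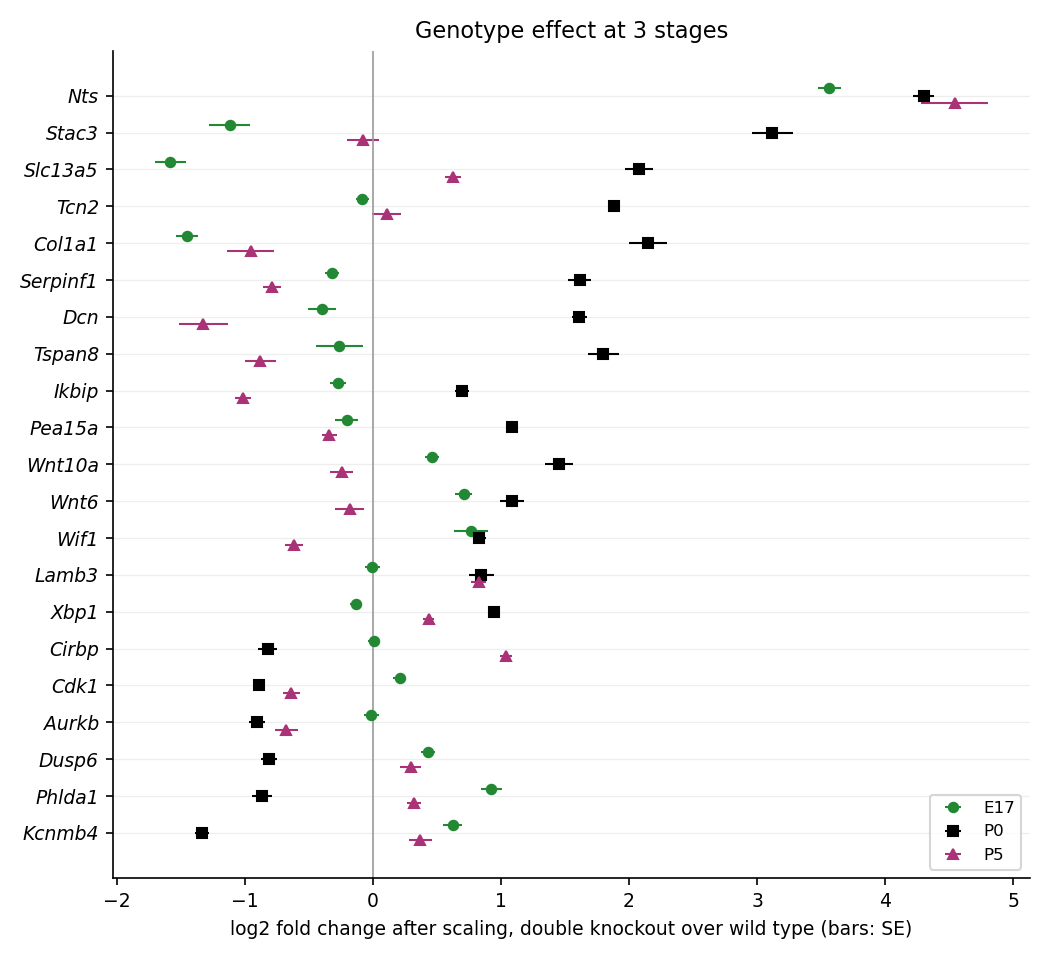
Log2 fold change after scaling (double knockout minus wild type, bars SE) of 21 genes at E17, P0 and P5. Nts lies far above 0 at each stage (3.56 at E17, 4.30 at P0, 4.54 at P5), Stac3, Tcn2 and Col1a1 are highest at P0, and Cdk1 is above 0 at E17 (0.21) and below 0 at P0 (-0.89) and P5 (-0.64).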

How the data were processed

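RNA-seq libraries of mouse molar epithelium were compared at P0, 3 wild type against 3 double knockout. Per the labels' protocols, Trizol RNA (1 µg, RIN over 7) went through rRNA depletion and NEBNext Ultra II preparation. Per the submitters' processing notes the authors used Partek (no version given) and mm10, while no aligner or strand setting is given in the sources used here. The deposited values are RPKM per transcript; no source states that unit, which was read from the values. Per the file headers the deposited tables also give alignments per library.

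RPKM were summed per gene symbol, and genes with at least 1 RPKM in at least 3 of 6 libraries were tested on log2(RPKM + 1) with limma 3.58.1 (trend) in R 4.3.3, two-sided, on the deposited scale and after scaling to the 75th percentile; a call needed an adjusted p under 0.05 in both. A stage difference was the difference of log2 fold changes over the root of summed squared errors (Satterthwaite degrees of freedom). Scripts were tested on simulated data. Genes named are the 12 largest rises and 12 largest falls with groups apart and a mean of at least 3 RPKM in the higher group, from each list the members of smallest p (at most 4), a tooth gene list, and up to 6 per stage comparison; a gene named by a list may not have passed. Predicted and similar symbols were counted, not named, and some named genes are not reported here. Members and lists were chosen with earlier results of these data known. The tested alternatives were no filter, a mean of at least 5 RPKM, a pseudocount of 0.1, no trend, a replicate block, a log2 fold change of at least 1, each library left out and, chosen after seeing the data, median-of-ratios scaling and the lists without WT replicate 2. RPKM keep no counts, so no counting interval is given. Promoters are from RefSeq.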

Additional observations from a re-analysis of the deposited data

Results flagged for a closer look

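The genes below had a genotype effect (log2 fold change, double knockout minus wild type) that differed between P0 and another stage, tested on both scales. They are 15 genes against E17 and 17 against P5, from the tooth gene list and up to 6 further genes per comparison. Further genes were chosen for the smallest p of this same difference among those that passed, so their passing was fixed by the choice. Of 21 tested tooth list genes, P0 lay above E17 in 7 and below in 6, above P5 in 10 and below in 2. Some of these are not reported here. Over all shared genes these shares were 7.71% and 23.7% against E17 and 29.7% and 10.3% against P5. Values below are P0 minus the other stage on the deposited scale.

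Against E17, the P0 effect was higher for Stac3 by 4.01, Slc13a5 by 3.39, Col1a1 by 3.27, Tcn2 by 1.66, Phospho1 by 0.81, Wnt10a by 0.71, Lamb3 by 0.54 and Nts by 0.46. It was lower for Kcnmb4 (-2.26), Phlda1 (-2.10), Dusp6 (-1.56), Cdk1 (-1.42), Igfbp3 (-1.37), Col3a1 (-1.05) and Gja1 (-0.62).

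Against P5, the P0 effect was higher for Col1a1 by 3.31, Tspan8 by 2.83, Serpinf1 by 2.61, Wnt10a by 1.91 and Ikbip by 1.90. It was higher for Phospho1 by 1.84, Slc13a5 by 1.66 and Wif1 by 1.65. For Pea15a, a death effector domain protein that binds ERK, the P0 effect was higher by 1.63. It was also higher for Wnt6 by 1.48, Dlx4 by 1.03, Gja1 by 0.64 and Dlx3 by 0.42. It was lower for Cirbp, a cold-inducible RNA-binding protein (-1.66), Dyrk2, a protein kinase (-1.18), Dusp6 (-0.93) and Igfbp3 (-0.82). The genes with opposite directions at P0 and P5 include Cirbp, which fell at P0 from 86.6, 95.7 and 91.5 RPKM to 48.8, 48.2 and 54.3 RPKM (log2 fold change -0.84) and had a log2 fold change of 0.81 at P5.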

How the results depend on the processing

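Of 122 named genes that rose or fell, 101 kept that call in all 10 settings refitted for each gene (no filter, a pseudocount of 0.1, no trend, the replicate block and each of 6 libraries left out), 21 lost it in at least 1 and 0 changed direction. Of the 122, 120 kept it with median-of-ratios scaling, 93 had a mean of at least 5 RPKM and all of these kept it, and 34 had a log2 fold change of at least 1 in size. Without the level filter alone, Cd34, Ddit4, Dner, Fcer1g, Ifi204, Myb, Prrx1, Slfn2, Speg and Tuba4a lost it. The gene counts (345 rose, 470 fell) were 332 and 401 with no filter, 272 and 335 at a mean of at least 5 RPKM, 345 and 469 with a pseudocount of 0.1, 349 and 470 without trend, 345 and 449 with median-of-ratios scaling, and 285 to 368 and 350 to 540 with a library left out. With a log2 fold change of at least 1 they were 42 and 20, also before scaling, and 80 and 22 for transcripts. Transcript counts (440 rose, 451 fell) were 210 and 155 with no filter, 258 rose at a mean of at least 5 RPKM, and 293 to 404 rose and 264 to 496 fell with a library left out. The genes with a P0 effect above E17 numbered 282 with no filter. Of genes that were not called, 3 changed sign with a library left out: Hba-a1 (-0.16 to 0.067), Igfbp5 (-0.27 to 0.11) and Lum (-0.205 to 0.494). The causes were not tested.

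With the replicate number as a block, 355 genes rose and 472 fell. Deviations of same-numbered WT and DKO libraries from their group means correlated at -0.166, 0.27 and -0.081. Those of differently numbered libraries ranged from -0.417 (WT 2 and DKO 1) to 0.518 (WT 3 and DKO 1). Deviations from a mean of 3 libraries are not independent, so these values cannot show whether the numbers pair the libraries. RPKM keep no read counts, so the depth behind single genes is unknown.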

Other observations

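Genes that interferon induces were mostly lower in the double knockout at P0. Of 13 tested 8 fell and 1 rose (median log2 fold change -0.40, beside -0.05 over all genes tested). Xaf1, which binds an inhibitor of cell death, fell by 0.78, Slfn2, a schlafen protein of immune cells, by 0.73, Ifi204, a sensor of DNA, by 0.68, and Irgm1, a GTPase of defence against microbes, by 0.55. The falls came to 5 without WT replicate 1, WT replicate 3 or DKO replicate 3, and 0 rose when any 1 library was left out. Of 10 immune markers 5 fell as well, and their part in this was not tested.

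Of 3 tested circadian genes 0 passed the limma test on both scales (1 was lower at an unadjusted p under 0.05, and 1 fell without WT replicate 1 or DKO replicate 2).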
